A study of Homo sapiens with 12 samples.

Results

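The comparison described here is that of the arrays labelled SUDHL2 at 1% oxygen with the arrays labelled SUDHL2 at 21% oxygen, which were 6 of the 12 arrays of the series. Members were taken from the labels, 3 arrays in hypoxia and 3 in normoxia, and every gene detected on at least 3 of the 12 arrays was compared, 9621 genes in all. SUDHL2 is an established human line of diffuse large B-cell lymphoma (DLBCL), obtained from a cell bank and grown in RPMI-1640 with serum and antibiotics. HLY, the other line of the series, is also a DLBCL line and was cultured in the same medium at the same 1% and 21% oxygen, again with 3 arrays per group. The CO2 level was the same at both oxygen levels, no genetic change or drug was applied to any group, and the labels give no duration of hypoxia. The design calls the arrays of a group biological replicates. Each label stands for 1 cell line, so the 3 arrays of a group sample cultures and not patients.

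Cells sense oxygen through prolyl hydroxylases that mark the alpha subunit of hypoxia-inducible factor (HIF) for destruction by the VHL ligase while oxygen is present. When oxygen falls, HIF1A is stable, pairs with ARNT and raises transcription of genes for glucose uptake, glycolysis, pH control and blood vessel growth. DLBCL arises from mature B cells, and its main expression classes carry either the programme of the germinal-centre B cell, in which BCL6 is a central repressor, or that of the activated B cell, in which NF-kB activity and plasma cell factors such as IRF4 are prominent.

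Before any gene was compared, the 12 arrays were compared as wholes, and they grouped across the line labels. Over the 9621 genes, Pearson's correlation between a SUDHL2 hypoxia array and a SUDHL2 normoxia array had a median of 0.754 over the 9 pairs, with a range of 0.742 to 0.772. The SUDHL2 hypoxia arrays correlated far more closely with the HLY normoxia arrays (median 0.976, range 0.97 to 0.982), and the SUDHL2 normoxia arrays with the HLY hypoxia arrays (median 0.984, range 0.978 to 0.986). These crossed values lay near those within a group, which had a median of 0.983 among the SUDHL2 hypoxia arrays and of 0.988 among the SUDHL2 normoxia arrays. The first principal component held 88.9% of the variance and set the same groups apart. A change of oxygen within SUDHL2 and a difference between the cell lines therefore cannot be told apart in the comparison of these 6 arrays, and most of the change described below may be a difference between lines. Group names follow the labels throughout, and the value of SUDHL2 hypoxia against HLY normoxia is given beside the main one for many genes and lists, though not for all. These comparisons share the 3 SUDHL2 hypoxia arrays, so they are not independent of each other.

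**Figure D1:**
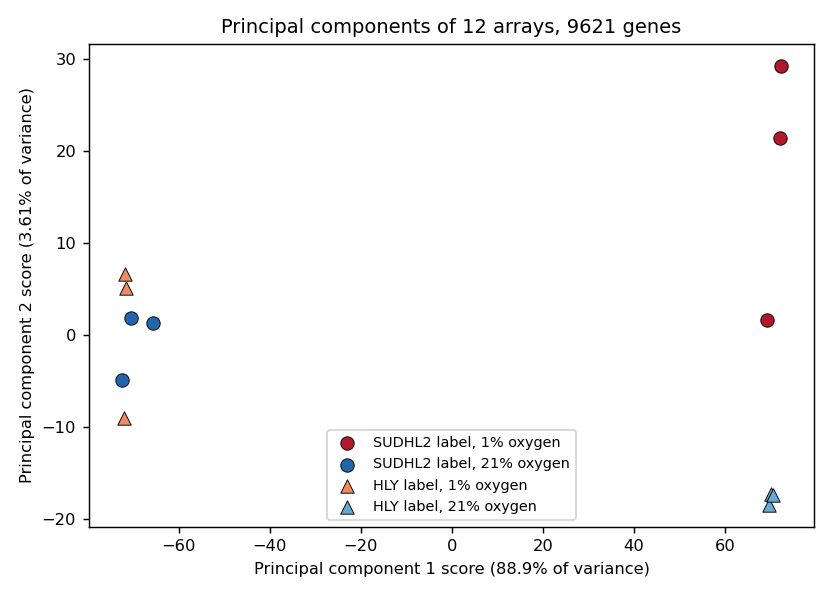
Scores of the 12 arrays on principal components 1 (x axis, 88.9% of the variance) and 2 (y axis, 3.61%), 1 point per array, with colour and shape giving line label and oxygen. SUDHL2 hypoxia lies at the right with HLY normoxia, and SUDHL2 normoxia at the left with HLY hypoxia.

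Median raw intensities per array lay between 111 and 149, and between 12322 and 14925 probes were detected on an array, with the fewest on SUDHL2 hypoxia replicate 3. On principal component 2, SUDHL2 hypoxia replicate 1 (score 1.60) stood apart from replicates 2 (21.4) and 3 (29.3). SUDHL2 normoxia replicate 2 also stood apart: over the 147 genes that were more than 4 lower on the log2 scale in HLY hypoxia than in HLY normoxia, it was the highest of its group for 130, with a median of 5.49 against 4.77 and 4.7 on replicates 1 and 3. No array of the SUDHL2 normoxia group stood out in this way over the 152 genes with the opposite difference, where replicate 2 was highest for 48. Some values that rest on this array are given with and without it below, but not all. IRF8, BTK, MS4A1, LTA, IDH2, IFITM2, BMF and NDUFB1 were each detected on 1 of the 3 SUDHL2 normoxia arrays. Their differences are given as fitted, with the other normoxia signals at background. NDRG1, RORA, KDM4C and GADD45A were each detected on 1 of the 3 SUDHL2 hypoxia arrays. Their falls are likewise given as fitted, with the other hypoxia signals at background. No 2 arrays held identical intensities.

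Between SUDHL2 hypoxia and SUDHL2 normoxia, 3200 of 9621 genes (33.3%) were called higher at 1% oxygen and 3171 (33%) lower at a Benjamini-Hochberg adjusted p under 0.05 in limma. On the log2 scale the median size of the difference was 0.648, against a median standard error of 0.161, and 3185 genes were called at a size over 1. For 6435 genes the ranges of the 2 groups were separate (66.9%). The breadth of the change was much smaller against the other label: SUDHL2 hypoxia against HLY normoxia gave 553 genes higher (5.75%) and 973 lower (10.1%), with a median size of 0.234. HLY hypoxia against SUDHL2 normoxia gave 113 higher (1.17%) and 118 lower (1.23%), with a median size of 0.157. The difference between the SUDHL2 and HLY responses was itself called for 7100 genes (73.8%). The counts against HLY normoxia depended in part on single arrays, in both directions. Without SUDHL2 hypoxia replicate 2 they were 257 higher and 646 lower, and without replicate 3 they were 276 and 623. Without hypoxia replicate 1 they rose to 815 and 1329. Only these counts were repeated with arrays left out, and calls of single genes against HLY normoxia were not.

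**Figure D2:**
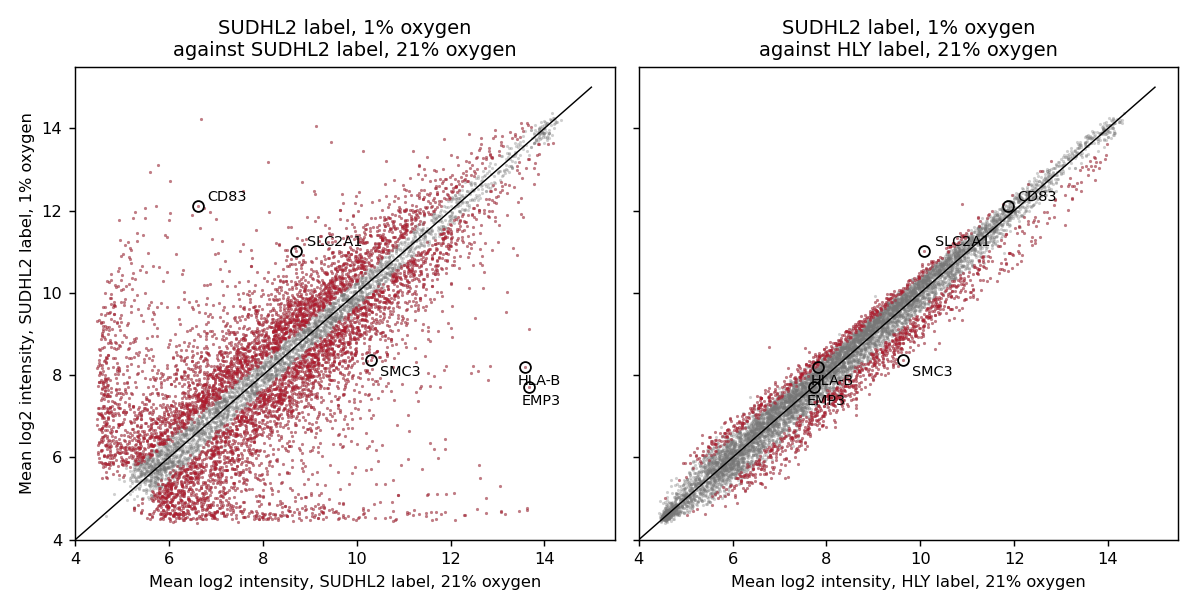
Mean log2 intensity of each of 9621 genes in SUDHL2 hypoxia (y axis) against SUDHL2 normoxia (left panel) and HLY normoxia (right panel), with genes called at an adjusted p under 0.05 in red and the line of equal values in black. The left cloud is broad, with 3200 genes called higher and 3171 lower, and the right cloud is narrow, with 553 and 973.

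The genes that rose most among those detected on all 6 arrays included genes of the activated and germinal-centre B cell and several enzymes. CD83, a surface protein of activated B cells and dendritic cells, had log2 intensities of 12.10, 12.20 and 12.02 in hypoxia and of 6.33, 7.37 and 6.17 in normoxia, a difference of 5.48 ± 0.25 (SE, n = 3 against 3, adjusted p = 9.46e-11). BCL6, the germinal-centre repressor, stood at 11.67, 11.53 and 11.55 against 6.55, 7.29 and 6.15, a difference of 4.92 ± 0.22 (adjusted p = 8.50e-11). HK1, a hexokinase that opens glycolysis, stood at 12.09, 12.02 and 12.05 against 6.55, 7.17 and 6.53, a difference of 5.30 ± 0.18 (adjusted p = 6.28e-12). In each of these genes the groups lay far apart, and normoxia replicate 2 was the highest normoxia array. The other 9 of the 12 largest increases were in NMRAL1 (5.49), an NADPH sensor, MAGEA1 (5.10), a cancer-testis antigen, SGK1 (5.08), a serum- and glucocorticoid-induced kinase, GSTP1 (4.95), a glutathione transferase, VNN2 (4.90), a pantetheinase, ADAP1 (4.82), APBB1IP (4.78), an adaptor of Rap1, TSPAN33 (4.39), a tetraspanin of B cells, and NSMF (4.26). Normoxia replicate 2 was the highest normoxia array in all 12, and without it the difference of GSTP1 was 5.64. Against HLY normoxia the same 12 genes differed by -0.21 to 0.46, and 1 of them, NMRAL1 (0.46), was called.

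The largest decreases included genes of antigen presentation, a cytoskeletal filament and the cell cycle inhibitor p21. HLA-B, a heavy chain of MHC class I, had log2 intensities of 7.99, 8.33 and 8.26 in hypoxia and of 13.51, 13.77 and 13.45 in normoxia, and fell by 5.39 ± 0.13 (SE, adjusted p = 2.22e-13). CDKN1A, which encodes p21, stood at 8.29, 8.24 and 8.13 against 12.73, 12.88 and 12.89, and fell by 4.61 ± 0.13 (adjusted p = 8.81e-13). VIM, the intermediate filament vimentin, stood at 8.09, 7.93 and 8.29 against 12.55, 12.72 and 12.50, and fell by 4.49 ± 0.13 (adjusted p = 8.80e-13). The groups did not overlap in any of these, and the SD within a group was small beside the difference. EMP3, a membrane protein of the PMP22 family, fell by 5.96 and PTP4A3, a tyrosine phosphatase, by 5.43. The remaining falls were those of HLA-F (-4.92), the pseudogene HLA-H (-4.56), BLVRA (-4.48), which reduces biliverdin, S100A6 (-4.38), LY6E (-4.25), DEF8 (-4.24) and SDC1 (-4.21), the plasma cell proteoglycan CD138. Probes for HLA genes can share transcripts between near-identical genes, so their split between genes is uncertain. Against HLY normoxia the 12 genes differed by -0.02 to 0.40, and 0 were called in limma, with 2 at an unadjusted p under 0.05.

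Another set of genes passed from background to clear signal. Of all genes tested, 449 were detected on all 3 hypoxia arrays and on no normoxia array, 448 of them called higher, and 597 showed the reverse, 591 of them called lower. These genes were chosen by detection on the same arrays, so the near-complete calling follows from that choice and supports nothing. Where every array of a group was at background, the fold is a lower bound, taken from the mean of the bright group against the lowest signal among detected probes on each dim array, or the dim probe's own signal where that was higher. The brightest genes seen in hypoxia alone were NAPSB (at least 61.4-fold higher), OLFML2A (43.9), IAH1 (37.0), CD79B (35), GPX7 (33.6), FERMT3 (32.8), MGST2 (32.1), SLC43A3 (27.3), INPP5D (26.4) and GNG11 (26), each figure a lower bound of the fold. CD79B is a signalling chain of the B-cell receptor, INPP5D encodes the phosphatase SHIP1 that restrains it, FERMT3 links integrins to actin, and GPX7 and MGST2 belong to the glutathione enzymes. The brightest genes seen in normoxia alone were DHRS2, a short-chain dehydrogenase, at 13.58, 13.69 and 13.58 in normoxia and at least 199-fold lower in hypoxia, TRIB1 (at least 108-fold lower), a pseudokinase, ITM2A (95.7), a membrane protein of lymphocytes, YBX3 (79.9), a cold shock domain protein, and 6 genes of the GAGE family of cancer-testis antigens, with bounds from 109-fold for GAGE12B to 199-fold for GAGE4. GAGE genes are near-identical copies on the X chromosome, and their probes cannot be taken as separate measurements. Against HLY normoxia CD79B differed by -0.03, and DHRS2 and TRIB1 were below detection on the HLY normoxia arrays too.

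**Figure D3:**
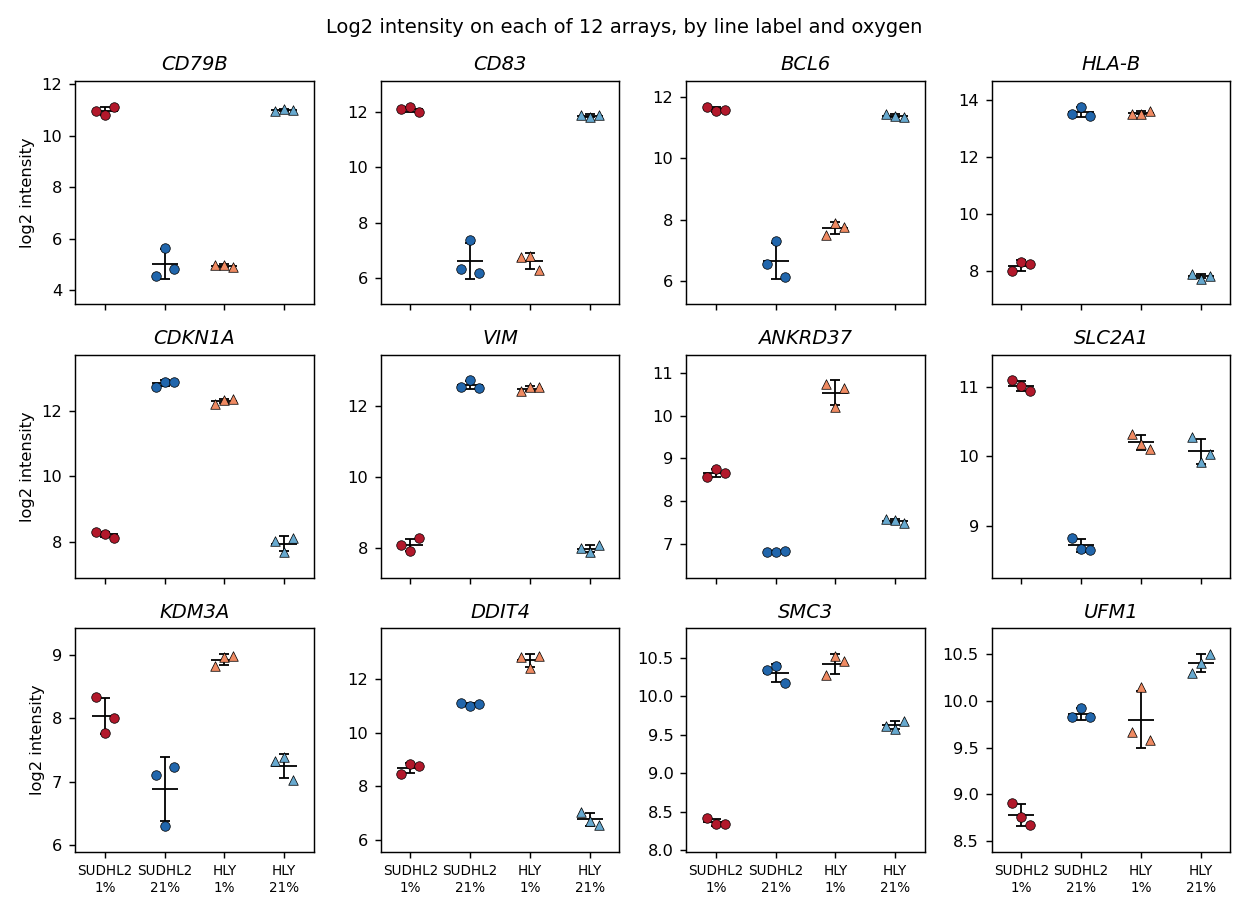
Log2 intensity (y axis) of 12 genes on each of the 12 arrays, in 4 groups by line label and oxygen (x axis), with black bars for the mean and the SD of 3 arrays. CD79B, CD83, BCL6, HLA-B, CDKN1A and VIM of SUDHL2 hypoxia lie beside HLY normoxia, while ANKRD37, SLC2A1 and KDM3A lie above both normoxia groups and SMC3 and UFM1 below all other groups.

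Most tested genes of the B-cell receptor and its coreceptors rose. Of 19 tested, 16 rose and 3 fell, with a median difference of 2.66, or 1.89 with the 10 genes at background in 1 group set to their bounds, against a median of 0.0157 over all genes. Those 10 genes passed the detection filter only through other groups, so the counts follow in part from the filter. The counts of this and of the following lists against SUDHL2 normoxia stand against 33.3% of all genes higher and 33% lower. Their counts against HLY normoxia stand against 5.75% of all genes higher and 10.1% lower in that comparison. CD79A, the partner of CD79B, stood at 11.34, 12.16 and 12.20 in hypoxia and at 5.62, 7.75 and 6.11 in normoxia (difference 5.40 ± 0.41 SE, adjusted p = 3.34e-08). CD81, a tetraspanin of the cell surface, differed by 6.69 ± 0.47, BTK, the kinase downstream of the receptor, by 4.99 ± 0.29, and MS4A1, which encodes CD20, by 4.49 ± 0.30. LYN rose by 2.66, and CD22, BLK and CD72, all at background in normoxia, were at least 3.71-fold, 3.10-fold and 1.84-fold higher. TNFRSF17, the receptor BCMA of plasma cells, went the other way, from 11.72, 11.81 and 11.60 in normoxia to background in hypoxia (at least 53-fold lower). The small falls of SYK (-0.41, adjusted p = 0.0270) and PLCG2 (-0.38) lost their call when single arrays were left out, SYK without hypoxia replicate 1, hypoxia replicate 2 or normoxia replicate 2 (adjusted p 0.0664 to 0.135) and PLCG2 without hypoxia replicate 3, normoxia replicate 1 or normoxia replicate 2 (adjusted p 0.0627 to 0.0916). Normoxia replicate 2 carried the only detected normoxia signal of CD81 (7.71 against 5.27 and 5.10), and without it the difference of CD81 was 7.54 and that of CD79A 6.04. Against HLY normoxia 1 of the 19 genes was called, with a median of -0.01.

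The fixed B-cell markers gave the same picture on the level of detection. Of the 7 markers with a probe, 6 were detected on all 3 SUDHL2 hypoxia arrays (MS4A1, CD79A, CD79B, EBF1, CD22 and BLK), and none was on all 3 SUDHL2 normoxia arrays, where CD79A was detected on 2 and MS4A1 on 1. PAX5 was detected on no array. The summed raw intensity of these markers ran from 6684 to 10723 in hypoxia and from 795 to 1116 in normoxia. In bulk RNA, fewer cells of a type and less RNA per cell cannot be told apart. The defining B-cell markers were near background in the arrays labelled SUDHL2 at 21% oxygen. Under the HLY label MS4A1, CD79B, EBF1, CD22 and BLK were detected on all 3 normoxia arrays and on 0 hypoxia arrays. CD79A was detected there on 3 normoxia arrays and 1 hypoxia array. The 4 plasma cell markers SDC1, PRDM1, XBP1 and IRF4 were detected on all 6 arrays, with a summed intensity of 3983 to 9142 in hypoxia and 13193 to 18792 in normoxia.

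Transcription factors of the B lineage moved in both directions, 12 of 21 tested higher and 7 lower (median 0.95). LMO2, a germinal-centre factor, differed by 6.39 ± 0.40 (7.09 without normoxia replicate 2), IRF8 by 5.93 ± 0.31, EBF1, an early B-cell factor, was at least 14.4-fold higher, as were POU2F2 (at least 3.81-fold), SPIB (at least 3.27-fold) and SPI1 (at least 2.89-fold), and BATF and BCL11A rose by 1.97 and 1.58. The factors that fell were XBP1 (-1.56), which drives the secretory programme, PRDM1 (-1.48), which encodes BLIMP1, and IRF4 (-1.36), which act in plasma cells, together with TCF3 (-1.91), MYB (-2.24), POU2AF1 (-0.50) and BACH2 (at least 1.13-fold lower). Against HLY normoxia 2 of the 21 were called, MYB (-0.55) and MYBL1 (-0.95), both lower.

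Antigen presentation fell broadly. Of 13 tested MHC class II genes, 11 fell and 2 rose (median -1.63, or -0.97 with genes at background at their bounds), and of 16 genes of MHC class I and peptide loading 10 fell and 1 rose (median -1.43, or -1.25). HLA-DRA, the alpha chain of HLA-DR, stood at 9.49, 9.42 and 9.67 in hypoxia and at 13.16, 13.26 and 13.12 in normoxia, and fell by 3.66 ± 0.12 (adjusted p = 2.97e-12). HLA-DPA1 fell by 3.72, CD74, the invariant chain that fills the groove, by 0.97, and CIITA, the master regulator of class II, from 6.63, 6.4 and 6.33 to below detection on all 3 hypoxia arrays (at least 1.38-fold lower). TAP1, a subunit of the peptide transporter, fell by 2.69, HLA-C by 2.80 and PSMB9, an immunoproteasome subunit, by 1.63, while B2M, the light chain of class I, differed by -0.12 ± 0.13 (adjusted p = 0.424). CTSS, a protease of the class II pathway, was at least 2.48-fold higher, and HLA-DOB rose by 1.34. The 1 class I gene called higher was PSMB10 (0.32), which lost the call without hypoxia replicate 1, normoxia replicate 1 or normoxia replicate 2 (adjusted p 0.0751 to 0.0832). Against HLY normoxia 2 class II genes were called, both higher, namely HLA-DPA1 (0.49) and HLA-DRB4 (0.57). In the class I list HLA-G (0.72) was called higher there and ERAP2 (-1.08) lower.

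Genes of NF-kB and of the TNF family moved mostly upward. Of 22 subunits, inhibitors and feedback targets of NF-kB, 15 rose and 5 fell (median 0.89). CD40, a receptor that feeds the pathway, was at least 12.9-fold higher, NFKBIZ, a nuclear cofactor, rose by 2.64, NFKB1, which encodes p50, by 1.02, RELB by 0.89 and RELA by 0.81, while NFKB2, TRAF3, BCL3, TNIP2 and IER3 fell by 0.66, 0.88, 0.95, 0.98 and 1.01. NFKB2 lost its call without hypoxia replicate 1, hypoxia replicate 2 or normoxia replicate 1. Of 14 TNF family members 8 rose and 5 fell (median 0.81, or 0.16 with genes at background at their bounds). LTB, lymphotoxin beta, stood at 12.01, 11.99 and 12.22 against 4.80, 7.12 and 4.54 (difference 6.59 ± 0.46, and 7.41 without normoxia replicate 2), LTA differed by 5.42, TNF was at least 5.31-fold higher, and CD70, the ligand of CD27, fell by 2.20. Among 19 genes of JAK-STAT signalling 9 rose, with STAT3 at 12.28, 12.47 and 12.44 against 9.13, 9.38 and 8.84 (3.28 ± 0.16), STAT5A at 2.48 and PIM1 at 2.16, and 6 fell, led by IL2RB (fell by 4.19). Against HLY normoxia 7 genes of these lists were called, TNF (0.67), RELB (0.54) and NFKBIE (0.57) higher and REL (-1.01), CFLAR (-0.56), TNFSF10 (-0.73) and IL10 (-0.71) lower. REL, which encodes c-Rel, was at least 1.94-fold higher than SUDHL2 normoxia, where it was at background.

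Receptors that place lymphocytes in tissue moved in both directions, 7 of 17 higher and 7 lower, against 33.3% and 33% of all genes. CXCR5, which draws B cells into follicles, differed by 6.61 ± 0.39 (7.29 without normoxia replicate 2) and P2RY8, a receptor of the germinal centre, by 2.66. CXCR4, the receptor of CXCL12, stood at 10.27, 10.27 and 10.57 in normoxia and below detection on all hypoxia arrays (at least 20.9-fold lower), and CCR7, which guides cells to lymph nodes, fell by 2.64. Against HLY normoxia 0 of the 17 were called in limma, with 3 at an unadjusted p under 0.05. Among chemokines CCL3L3 and CCL3 were seen on all hypoxia arrays and on no normoxia array, at least 1.49-fold and 1.21-fold higher, and CCL5 rose by 2.10.

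Cancer-testis antigens, germline proteins re-expressed in tumours, moved by family. Of 38 with a probe 27 were tested, and of these 10 rose and 17 fell (median -2.92, or -2.71 with the 15 genes at background in 1 group at their bounds). Every tested member was called. The 15 genes passed the detection filter only through other groups, and antigens at background throughout were not tested. The share called was thus largely set by the filter and supports nothing. The MAGEA and CT45A genes rose, with CT45A1 at 5.41, MAGEA12 at 3.71 and MAGEA6 at 2.57, and the SSX, GAGE, PAGE and MAGEC genes fell, with SSX1 going from 11.40, 11.62 and 11.38 to background (at least 44.7-fold lower) and MAGEC1 at least 16-fold lower. Members of 1 family can share probe sequence, so they are not independent. Against HLY normoxia 0 of the 27 were called in limma, with 2 at an unadjusted p under 0.05 and a median of 0.05. Of the 18 genes of caveolin, S100 and annexin families 9 fell, among them CAV1 (-5.74), ANXA2 (-1.70), LGALS1 (-2.49) and S100A4 (-2.23), and 7 rose, with LGALS3 at 2.30. Against HLY normoxia 0 of these 18 were called in limma, with 1 at an unadjusted p under 0.05.

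Against this background the HIF target genes moved in both directions. Of 34 tested, 13 rose, 11 fell and 10 were not called, with a median of 0.16, and their shares of 13 and 11 in 34 lay close to the 33.3% and 33% of all genes. After HK1, the members that rose most were AK4 (2.84 ± 0.16), a mitochondrial adenylate kinase, ADM, the vasodilator adrenomedullin, at least 3.56-fold higher, BHLHE41 at least 3.46-fold higher, SLC2A1 (2.30 ± 0.13), ANKRD37 (1.84 ± 0.14), TFRC (1.81), KDM3A (1.15 ± 0.22), HILPDA (1.15), FAM162A (0.96), HK2 (0.84 ± 0.12), WSB1 (0.83) and PFKFB3 (0.76). NDRG1, one of the best known HIF targets, stood at 6.17, 5.18 and 6.14 in hypoxia and at 10.66, 11.12 and 11.05 in normoxia, and fell by 5.12 ± 0.25 (adjusted p = 2.09e-10). RORA fell by 4.29, BHLHE40, a circadian repressor, by 3.18 ± 0.15, DDIT4, the mTORC1 inhibitor REDD1, by 2.37 ± 0.16, TXNIP by 2.17, INSIG2 by 1.35, KDM4C by 1.02, P4HA1, a collagen prolyl hydroxylase, by 1.01, GBE1 by 0.88 and ERO1A by 0.70. MXI1, an antagonist of MYC, was below detection in hypoxia and at least 1.27-fold lower. The angiogenic factor VEGFA differed by -0.44 (adjusted p = 0.0771), and EGLN1, PDK1, PDK3, BNIP3L, KDM4B, PFKFB4, ANGPTL4, RIOK3 and ZNF395 were not called, at -0.11 to 0.49.

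Beside HLY normoxia the same 34 genes of the SUDHL2 hypoxia arrays stood differently, with 12 called higher, 2 called lower and a median of 0.30, against 5.75% of all genes higher and 10.1% lower in that comparison. The 12 were DDIT4 (1.90), PFKFB4 (at least 1.57-fold), ANKRD37 (1.12), SLC2A1 (0.94), KDM3A (0.79), ADM (0.74), VEGFA (0.68), BHLHE40 (0.62), AK4 (0.62), PFKFB3 (0.55), EGLN1 (0.53) and ZNF395 (0.50), and the 2 lower were RORA (-1.10) and INSIG2 (-0.54). DDIT4 and BHLHE40 thus had opposite signs in the comparisons, below SUDHL2 normoxia and above HLY normoxia. HK1 differed by 0.19 (adjusted p = 0.527), and NDRG1 was detected on 1 SUDHL2 hypoxia array and 0 HLY normoxia arrays and was not called.

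**Figure D4:**
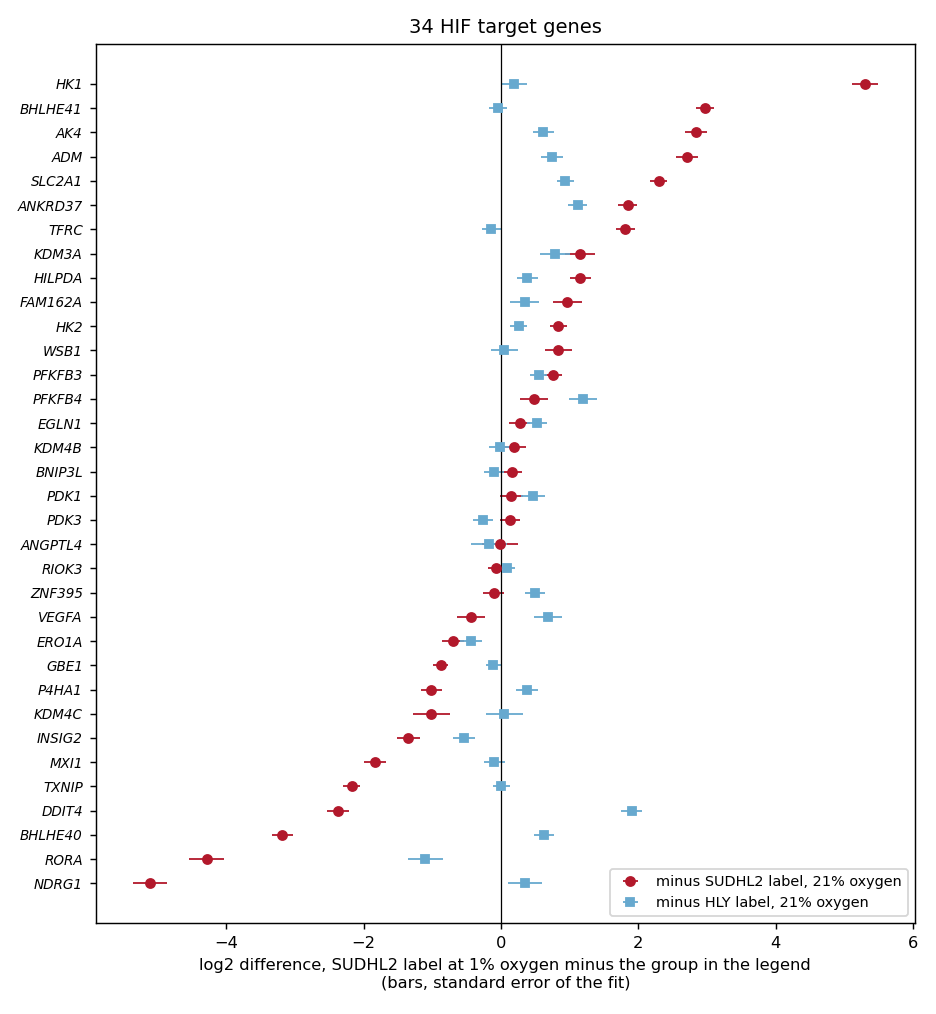
Log2 difference of SUDHL2 hypoxia (x axis) from SUDHL2 normoxia (red circles) and from HLY normoxia (blue squares) for 34 HIF target genes (y axis), with bars for the standard error of the fit; values of genes at background in a group are fitted and are no bounds. The red values run from -5.12 for NDRG1 to 5.30 for HK1 and the blue values from -1.10 for RORA to 1.90 for DDIT4.

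SLC2A1, ANKRD37, KDM3A, ADM, AK4 and PFKFB3 were called higher than both normoxia groups, 6 of the 34 targets, and the first 3 are given in full. The share of all genes called higher than both groups was not counted, so nothing is read from the number of targets. SLC2A1 encodes the glucose transporter GLUT1, and its log2 intensities were 11.09, 11 and 10.94 in SUDHL2 hypoxia and 8.83, 8.67 and 8.65 in SUDHL2 normoxia (adjusted p = 1.06e-09), with a difference of 0.94 from HLY normoxia (adjusted p = 5.60e-04). ANKRD37, an ankyrin repeat protein induced by HIF1A, stood at 8.57, 8.76 and 8.65 against 6.81, 6.81 and 6.83 (adjusted p = 3.59e-08), with 1.12 from HLY normoxia (adjusted p = 3.73e-04). KDM3A, a histone H3 lysine 9 demethylase, stood at 8.34, 7.76 and 8.0 against 7.11, 6.30 and 7.24 (adjusted p = 3.36e-04), with 0.79 from HLY normoxia (adjusted p = 0.0273). The SUDHL2 groups did not overlap in any of these 3. HLY hypoxia was above SUDHL2 normoxia in the same genes, by 1.48, 3.72 and 2.05.

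The promoters of SLC2A1, ANKRD37, KDM3A and DDIT4 are shown, since each was called higher in SUDHL2 hypoxia than in at least 1 normoxia group. The sequences are the 250 bases before the transcription start in RefSeq, build GRCh38.p14, on the strand of the gene, with each match to the HIF core motif ACGTG or GCGTG, on either strand, in capitals. The ANKRD37 window is chr4:185396591-185396840 on the plus strand, that of KDM3A chr2:86441121-86441370 on the plus strand, that of DDIT4 chr10:72273674-72273923 on the plus strand and that of SLC2A1 chr1:42958869-42959118 on the minus strand.
ANKRD37: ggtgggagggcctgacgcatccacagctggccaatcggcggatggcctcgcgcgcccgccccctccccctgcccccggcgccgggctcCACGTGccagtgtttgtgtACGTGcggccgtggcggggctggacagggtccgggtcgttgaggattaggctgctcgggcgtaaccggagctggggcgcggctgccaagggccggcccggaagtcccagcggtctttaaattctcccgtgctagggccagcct
KDM3A: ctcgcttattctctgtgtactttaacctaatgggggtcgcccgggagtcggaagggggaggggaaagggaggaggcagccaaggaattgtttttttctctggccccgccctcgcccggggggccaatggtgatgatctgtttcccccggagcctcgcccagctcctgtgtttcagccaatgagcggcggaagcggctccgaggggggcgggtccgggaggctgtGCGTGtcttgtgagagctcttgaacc
DDIT4: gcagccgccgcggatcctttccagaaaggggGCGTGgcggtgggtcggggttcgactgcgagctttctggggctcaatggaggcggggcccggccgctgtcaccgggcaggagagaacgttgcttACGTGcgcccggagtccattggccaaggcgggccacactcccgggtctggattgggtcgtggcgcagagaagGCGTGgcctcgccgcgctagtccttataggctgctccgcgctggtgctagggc
SLC2A1: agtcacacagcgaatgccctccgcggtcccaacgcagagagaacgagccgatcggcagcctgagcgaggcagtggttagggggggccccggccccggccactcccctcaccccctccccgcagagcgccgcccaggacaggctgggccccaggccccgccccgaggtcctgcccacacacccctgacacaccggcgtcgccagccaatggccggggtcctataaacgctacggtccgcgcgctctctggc
The ANKRD37 window held 3 matches, a pair of which overlap in the palindrome CACGTG, the DDIT4 window 3, the KDM3A window 1 and the SLC2A1 window 0. Of 29 tested HIF targets with a window, 24 (82.8%) held a match, against 43.1% of all 27305 windows and 58.8% of the 7832 windows of tested genes. A match was held by 10 of 12 windows of targets that rose, 8 of 10 of those that fell and 6 of 7 of those not called. A match is a run of letters and not a measured binding site, and a window without one says nothing of sites elsewhere.

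Of the oxygen-sensing genes themselves 9 were tested, 5 rose and 1 fell. HIF1A mRNA stood at 9.81, 9.22 and 9.41 in hypoxia and at 7.93, 7.75 and 7.39 in normoxia (difference 1.79 ± 0.18, adjusted p = 7.21e-07). Its asparaginyl hydroxylase HIF1AN rose by 2.17, the prolyl hydroxylase EGLN2 by 1.17, the coactivator CREBBP by 1.00 and CITED2, which competes with HIF for CREBBP, by 0.49, whereas the coactivator EP300 went from 7.8, 8.32 and 7.69 to background (at least 3.87-fold lower). EGLN1 (0.27) and VHL (0.22) were not called, nor was ARNT, which was detected on 1 of the 6 arrays. Against HLY normoxia HIF1A was lower (-0.61, adjusted p = 0.0360), and CITED2 (0.75) and EGLN1 (0.53) were higher.

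Most genes of glycolysis were not called. Of 17 tested, 6 rose, 1 fell and 10 were not called (median 0.15), so that the share that rose lay near the 33.3% of all genes and the share that fell below the 33%. Besides HK1, HK2 stood at 10.86, 10.91 and 10.75 in hypoxia and at 10.01, 9.97 and 10.04 in normoxia (difference 0.84 ± 0.12, adjusted p = 3.24e-05), and the phosphofructokinase PFKP rose by 0.71, while its muscle isoform PFKM fell by 1.39. The calls of GPI (0.37), ENO1 (0.33) and TPI1 (0.32) were lost when hypoxia replicate 2, hypoxia replicate 3 or normoxia replicate 1 was left out, so that 3 genes of glycolysis then rose, and some of these calls were lost without normoxia replicate 2 or 3. LDHA differed by 0.05 (adjusted p = 0.798), PGK1 by 0.24, PKM by 0.15, GAPDH by -0.15, ALDOA by -0.24, LDHB by -0.07, PGAM1 by 0.00, PFKL by 0.26, ENO3 by 0.05 and ALDOC by -0.16, none of them called. HK2 differed from HLY normoxia by 0.26 (adjusted p = 0.166), and PGAM1 (0.48) was the 1 gene of glycolysis called there.

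In the pentose phosphate pathway, which makes NADPH and ribose, 3 of 6 tested genes rose and 2 fell. TALDO1, the transaldolase, stood at 12.32, 12.66 and 12.55 against 10.97, 11.20 and 10.96 (1.47 ± 0.13, adjusted p = 2.03e-07), and RPIA and PGLS rose by 0.71 and 0.68. PGD, which forms NADPH in the oxidative branch, fell by 1.15 ± 0.19, and TKT, the transketolase, by 0.37, a call that was lost without hypoxia replicate 1, hypoxia replicate 2, normoxia replicate 2 or normoxia replicate 3 (adjusted p 0.0682 to 0.153). RPE differed by 0.31 (adjusted p = 0.0743) and was lower than HLY normoxia (-0.71), the 1 gene of the pathway called there.

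Mitochondrial genes did not move one way. In the TCA cycle 7 of 21 rose and 6 fell, shares near the 33.3% and 33% of all genes, with the mitochondrial isocitrate dehydrogenase IDH2 at 10.17, 10.38 and 10.52 against 4.98, 5.99 and 4.68 (5.14 ± 0.25) and the complex II subunit SDHA at -0.81. Of 34 complex I genes 9 rose and 6 fell, from NDUFB1 (2.23) to NDUFA7 (-1.47). Of 34 genes of complexes III to V 7 rose and 8 fell, from UQCRC2 (1.5) to ATP5MC2 (-1.24), with CYCS, cytochrome c, at 7.47, 7.35 and 7.27 against 7.93, 8.03 and 8.10 (-0.65, adjusted p = 8.19e-04). Of the mitochondrial ribosomal proteins 39 of 76 were higher and 11 lower (median 0.34), from MRPL49 (2.31) to MRPL42 (-1.41), while of 66 cytosolic ribosomal proteins 5 rose, 11 fell and 50 were not called, with RPS23 at -3.35. Against HLY normoxia 6 mitochondrial ribosomal proteins were higher and 4 lower, and of the cytosolic ones 3 were higher and 1 lower. In the same comparison 4 complex I genes and 1 gene of complexes III to V were called higher, and 1 TCA cycle gene lower.

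Lipid synthesis was likewise divided. INSIG1, the sterol sensor that holds SREBP in the endoplasmic reticulum, stood at 11.06, 10.55 and 10.70 against 7.42, 7.26 and 6.89 (3.58 ± 0.18), and SREBF1, which encodes SREBP1, fell by 3.40. Among 23 genes of cholesterol synthesis 6 rose and 9 fell. Of 12 genes of fatty acid synthesis 7 rose and 4 fell. The desaturase FADS1 was at least 8.91-fold higher, the citrate carrier SLC25A1 rose by 1.43, and the fatty acid synthase FASN fell by 0.99. Against HLY normoxia 3 genes of cholesterol synthesis were called, all lower, namely HSD17B7 (-0.98), SC5D (-0.77) and INSIG2 (-0.54). Of the fatty acid genes 0 were called there in limma, with 1 at an unadjusted p under 0.05.

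Genes of the amino acid response mostly fell against SUDHL2 normoxia. Of 21 targets of ATF4 and genes of serine synthesis 17 fell and 2 rose (median -0.92), and of 17 amino acid transporters 9 fell and 0 rose in limma, with 0 higher at an unadjusted p under 0.05 and 1 called higher without hypoxia replicate 3 (median -0.69). ASNS, asparagine synthetase, stood at 10.70, 10.86 and 10.48 in hypoxia and at 12.58, 12.73 and 12.71 in normoxia, and fell by 1.99 ± 0.13 (adjusted p = 4.20e-09). TRIB3 (-1.70), PSPH (-1.31), SLC7A5 (-0.98) and ATF4 itself (-0.72) fell, and SESN2, CHAC1 and the neutral transporter SLC1A4, all below detection in hypoxia, were at least 3.17-fold, 1.30-fold and 9.53-fold lower. The stress factor ATF3 went the other way, at 8.73, 8.64 and 8.80 against 7.15, 7.57 and 7.24 (1.40 ± 0.13), and was also higher than HLY normoxia (0.50, adjusted p = 0.0211), as were DDIT4 and TRIB3 (0.45). These were the 3 of the 21 called against HLY normoxia in limma, where 9 had an unadjusted p under 0.05 and the median was 0.25. Of the transporters 1 was called there, higher, with a median of 0.25. Chaperones of the endoplasmic reticulum were mixed, 5 of 19 higher and 7 lower, with HSPA5, which encodes BiP, at -1.59, HSP90B1 at -1.78 and CANX at 1.90. Of 21 cytosolic and mitochondrial chaperones 10 rose and 3 fell, with HSPA4 at 1.31 and HSPH1 at 0.64. Against HLY normoxia 2 of these 21 were called higher and 3 lower, HSPH1 (-0.67) among the lower ones. Of the chaperones of the endoplasmic reticulum 1 was called higher there and 1 lower.

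In the cell cycle, genes of DNA replication rose more often than they fell and genes of mitosis fell more often than they rose. Of 31 replication genes 15 rose and 4 fell, with RRM2, a ribonucleotide reductase subunit, at 10.25, 10.00 and 9.87 against 8.51, 7.99 and 8.40 (1.74 ± 0.16), RFC2 at 1.49 and PRIM1 at -1.85. Of 30 mitosis genes 6 rose and 14 fell. CDC25B, the phosphatase that activates CDK1 at entry into mitosis, stood at 8.28, 8.69 and 8.67 against 10.76, 11.22 and 10.65 and fell by 2.33 ± 0.17, TTK and CENPE fell by 2.32 and 2.19, and CDK1 itself, at 9.93, 9.67 and 9.05 against 11.30, 11.24 and 11.16, fell by 1.68 ± 0.20. CDC25A (0.06) and CDC25C (-0.18) were not called. Against HLY normoxia CDK1 (-0.69), CENPE (-0.78), CENPF (-0.44) and TOP2A (-0.43) were called lower and CDC20 (0.49), KIF20A (0.50) and BIRC5 (0.53) higher, CDC25B was not called (0.26, adjusted p = 0.312), and 7 of the replication genes were called higher. Among the G1 regulators CCND2, cyclin D2, fell from 12.68, 12.78 and 12.44 to 5.46, 6.17 and 4.87, a fitted difference of -7.13 with 1 hypoxia array above background, CCND3 rose by 3.32, and 9 of 16 fell.

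Targets of p53 fell, with 14 of 21 lower, 1 higher and a median of -0.76, or -0.58 with genes at background at their bounds. TP53INP1 stood at 5.87, 5.95 and 6.05 against 11.10, 10.93 and 11.23 (-5.13), GADD45A differed by -3.47, DDB2 by -2.35 and RPS27L by -1.33, and MDM2, the ligase of p53, was at least 2.31-fold lower. In the BCL2 family 7 of 16 rose and 2 fell: BCL2 rose by 2.46 ± 0.16, BID by 2.89 and the proapoptotic BMF by 4.08, and MCL1 and BCL2L2 fell by 1.79 and 1.49. Without hypoxia replicate 3 or normoxia replicate 1, 4 members of the BCL2 family fell. Genes of redox control moved both ways, 17 of 38 higher and 14 lower, with GPX4 at 1.96, SOD2 at 2.24 and CAT, catalase, at -1.89, and MGST1 fell from 11.84, 11.97 and 11.81 to background (at least 59.3-fold lower). Interferon-stimulated genes were as divided, 8 of 23 higher and 9 lower, from IFITM2 (4.14) to OAS2 (-3.69). KLF2, a factor of lymphocyte quiescence, stood at 6.18, 5.95 and 5.32 against 12.74, 12.57 and 12.53 (-6.80), and MYC fell by 0.90. Against HLY normoxia 1 of the p53 targets was called higher and 3 lower (median 0.08), and GADD45A (0.46) was not called. The BCL2 family there had 1 gene higher and 2 lower, and the redox list 1 and 1. Of the interferon-stimulated genes 3 were higher and 2 lower, the lower ones SAMD9 (-1.13) and SAMD9L (-1.05).

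**Figure D5:**
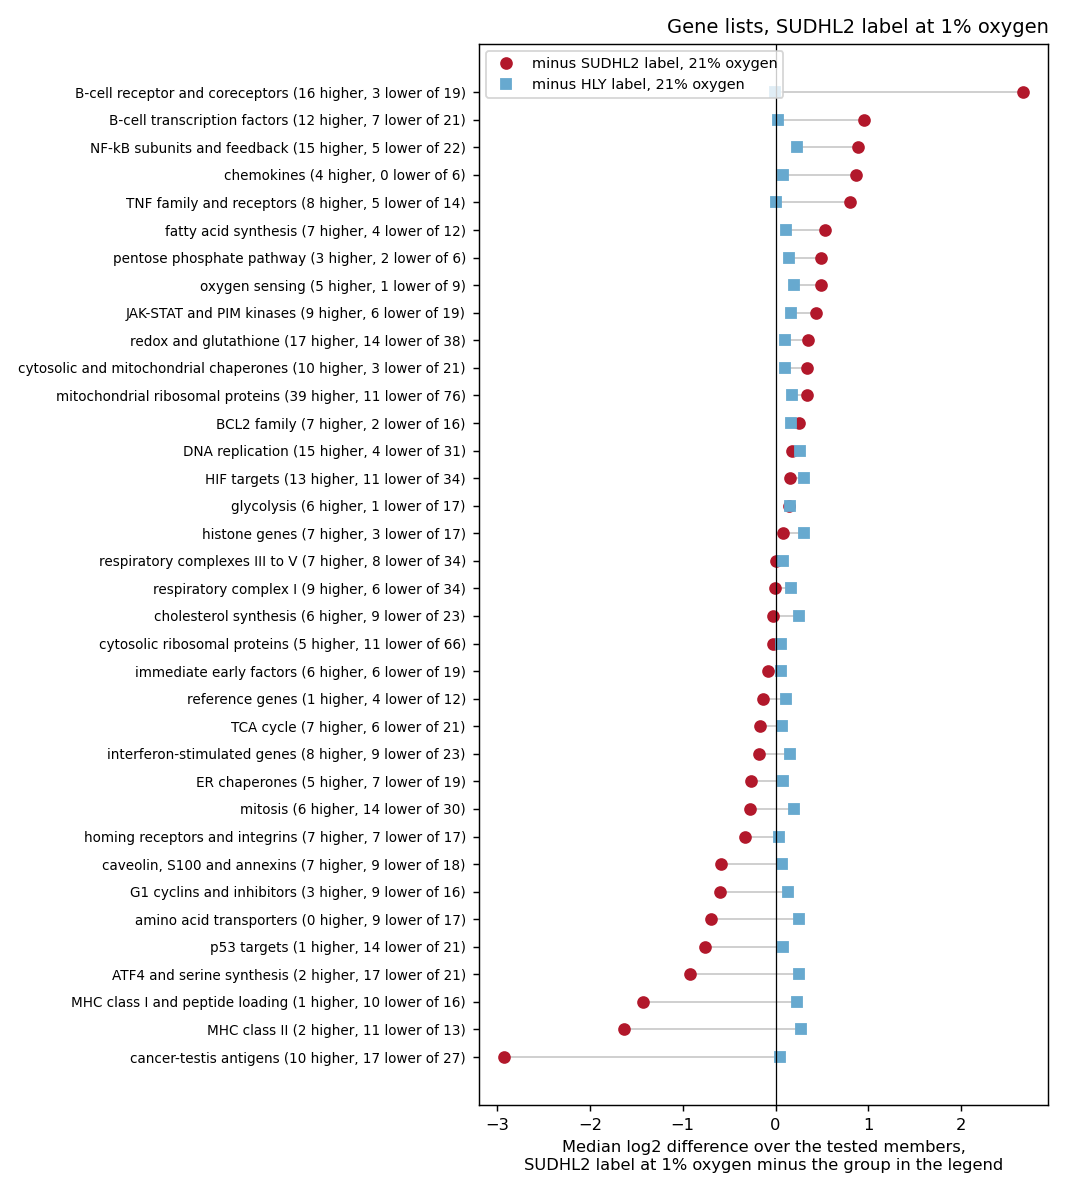
Median log2 difference (x axis) over the tested members of each gene list with at least 6 tested (y axis, with the members called higher and lower of those tested), for SUDHL2 hypoxia minus SUDHL2 normoxia (red circles) and minus HLY normoxia (blue squares). The red medians run from -2.92 for cancer-testis antigens to 2.66 for the B-cell receptor list, and the blue medians from -0.01 to 0.31.

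The defining markers of most other cell types were at or near background in both SUDHL2 groups, while some genes of the longer marker lists were not. Of the 5 T-cell, 4 NK-cell, 4 fibroblast and 3 erythroid defining markers with a probe, 0 were detected on all 3 arrays of either group, and CD2 was seen on 2 hypoxia arrays. Of the myeloid markers CD68 was detected on all 6 arrays. In the longer lists HBD, a globin, stood at 11.31, 11.11 and 11.54 in normoxia and below detection in hypoxia (at least 40.3-fold lower). GZMA, a granzyme of cytotoxic cells, was at least 27.7-fold lower and PECAM1, an endothelial adhesion protein, at least 7.23-fold lower, and ACTA2, smooth muscle actin, fell by 2.19. The epithelial list had 2 tested genes that moved in opposite directions. EPCAM, an adhesion protein, stood at 9.97, 9.69 and 9.67 in hypoxia and at background in normoxia (at least 15.4-fold higher), and MUC1, a mucin, at 5.83, 5.18 and 6.18 against 11.38, 11.42 and 11.39 (-5.67). KRT8, KRT18 and KRT19 were detected on no array. The part of other cell types in the results was not tested. Of 12 reference genes 1 rose, HPRT1 (0.36), a call lost without hypoxia replicate 1, hypoxia replicate 2, normoxia replicate 2 or normoxia replicate 3. ACTB (0.16) and GAPDH were not called, and GUSB fell by 1.33, PPIA by 0.96, SDHA by 0.81 and PSMB4 by 0.44.

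Beyond the HIF targets, the genes called higher than both normoxia groups with the smallest adjusted p were 2 small nucleolar RNAs, SNORD34 (1.03 against SUDHL2 normoxia, 0.91 against HLY normoxia) and SNORD83B (0.56 and 0.79), the enzymes GCDH (0.81 and 0.62), of lysine breakdown, and GSTZ1 (0.54 and 0.75), of tyrosine breakdown, HASPIN (1.57 and 0.84), a kinase of histone H3, and CTU1 (0.71 and 0.82), which modifies tRNA. GCDH stood at 9.89, 9.95 and 9.82 in hypoxia and at 9.11, 9.09 and 9.03 in SUDHL2 normoxia. These increases were small beside those of the B-cell genes, and the arrays of the groups did not overlap for GCDH.

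The genes called lower than both normoxia groups with the smallest adjusted p were SMC3, UFM1, NKTR, BLZF1, PNISR, SAMSN1, ALPP and LTN1. SMC3, a cohesin subunit, stood at 8.42, 8.34 and 8.34 in SUDHL2 hypoxia and at 10.33, 10.40 and 10.17 in SUDHL2 normoxia, and fell by 1.94 ± 0.12 (adjusted p = 2.76e-09), with -1.26 against HLY normoxia (adjusted p = 1.14e-04). UFM1, a ubiquitin-like modifier, stood at 8.90, 8.76 and 8.67 against 9.82, 9.93 and 9.82, and fell by 1.08 ± 0.15, with -1.62 against HLY normoxia. The hypoxia arrays of both genes lay below all 9 other arrays. SAMSN1, an adaptor of B-cell activation, fell by 4.06, with -1.59 against HLY normoxia, and LTN1, a ligase of ribosome quality control, differed by -1.24 and -1.42. NKTR and PNISR, both proteins rich in arginine and serine, differed by -0.90 and -1.29 and by -1.73 and -1.26. In all 8 genes HLY hypoxia differed from SUDHL2 normoxia by -0.68 to 0.36, a span in which BLZF1 (-0.68) was the 1 gene called.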

How the data were processed

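RNA from SUDHL2 and HLY cultures at 1% and 21% oxygen was hybridised to HumanHT-12 v4 BeadChips (Illumina), 3 per group. The authors deposited probe intensity values as read out in GenomeStudio 2011.1, neither background-corrected nor normalized, and a detection p-value for each. A score for every probe was deposited as well, and it matched a z-score of log10 intensity within 0.0109 and was used as an alternative. Background was corrected here with the detection p-values and arrays were quantile normalized (neqc in limma 3.58.1 under R 4.3.3, offset 16), so levels are relative between arrays and low signals are compressed. Of 47230 probes, 16288 were detected (p under 0.01) on at least 3 of 12 arrays, of which 12684 had a single gene symbol, and the brightest probe was kept for each of 9621 genes. Means of the 4 groups were fitted with lmFit and eBayes with Benjamini-Hochberg adjustment, so that SUDHL2 and HLY share an estimate of the spread. Standard errors are those of the fit. A rank test of 3 arrays against 3 cannot give an exact permutation p below 0.1 and was not used. The number of arrays limits the precision. Promoters were read from RefSeq, GRCh38.p14.

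Genes named are the 12 largest called increases and decreases detected on all 6 arrays without overlap, the 10 brightest called genes seen in only 1 group in each direction, up to 3 increases and 3 decreases per gene list, all HIF target, oxygen-sensing, glycolysis and pentose phosphate genes, and the 8 with the smallest adjusted p called higher, or lower, than both normoxia groups. Further genes were named after their values were seen. The comparison and the gene lists were chosen with earlier results of these data known. The fit was tested on simulated data. Alternatives were the background correction, normalization, arrays fitted, detection filter, probe rule, moderation, a replicate block, leaving out each array, the deposited scores and the selection in the methods. Figures were drawn with matplotlib 3.10.9.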

Additional observations from a re-analysis of the deposited data

Results flagged for a closer look

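The difference between hypoxia and normoxia was not the same under the SUDHL2 and HLY labels for 7100 of 9621 genes (73.8%), by the test of that difference in limma at an adjusted p under 0.05. In 6839 of them the SUDHL2 and HLY differences had opposite signs. The same test was passed by 30 of the 34 HIF targets and by 262 of the 288 named genes. Most of the named genes were chosen for their SUDHL2 difference, which is a term of this test, so their share was largely set by that choice and supports nothing. The arrays of each label that pair with the other label at the other oxygen level are given in the report, and oxygen and line cannot be told apart in these differences.

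Probes without a gene symbol were in no comparison of the report. Of 3604 such probes detected on at least 3 arrays, 1888 (52.4%) were called between SUDHL2 hypoxia and SUDHL2 normoxia, 906 higher and 982 lower, with a median size of 0.485 on the log2 scale.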

How the results depend on the processing

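The selection described in the study's methods gave 449 genes higher and 477 lower in place of 3200 and 3171, and a filter on detection on all SUDHL2 arrays left 2050 lower, where fewer genes were tested (6826). Leaving out 1 SUDHL2 array gave 2993 to 3188 genes higher and 2965 to 3200 lower. With a replicate block the counts were 3054 and 3026. Deviations of arrays with the same number correlated at 0.231, 0.024 and 0.103, so the numbers were not taken to pair the samples. Against HLY normoxia, leaving out 1 array gave 257 to 815 genes higher and 623 to 1329 lower. HLY hypoxia against SUDHL2 normoxia gave 173 genes higher without background correction and 75 with median centring (main 113), 65 lower with the deposited scores (main 118), and 77 to 151 higher and 66 to 140 lower with 1 array left out. The difference between labels was called for 6916 to 7186 genes when 1 array was left out. Median centring moved the median of all genes to 0.09. With it 7 cytosolic ribosomal proteins fell in place of 11, 6 mitochondrial ones in place of 11, and 8 chaperones of the endoplasmic reticulum rose in place of 5. Among single genes, RIOK3 differed by 0.39 with the mean of its probes (adjusted p = 0.00621, main -0.08), and RPL14 by -0.34 with the SUDHL2 arrays alone (adjusted p = 0.104, main 0.80). The cause was not tested for these changes other than the smaller number of genes tested. The alternative that left the HLY arrays out after normalization was added after the data were seen. Probes near background limit the low genes, whose fitted differences are compressed.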
